A study of Mus musculus with 10 samples.

Results

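The 9 genes described here encode protein kinases at the end of the RAS-ERK and mTOR pathways in mouse HSCs (hematopoietic stem cells), and are measured as RNA. They are the p90 ribosomal S6 kinases Rps6ka1, Rps6ka2, Rps6ka3 and Rps6ka6 (RSK1, RSK3, RSK2 and RSK4), the related kinases Rps6ka4 and Rps6ka5 (MSK2 and MSK1), the p70 S6 kinases Rps6kb1 and Rps6kb2 (S6K1 and S6K2), and Mapk3, which encodes ERK1. They were chosen by gene symbol from 26146 genes in the deposited count table, with the values of these same libraries in view, so every difference between the genotypes is given for them as a description without a p-value. The HSCs were LSK CD48- CD150+ cells, sorted from the bone marrow of 5 Cited2 CTL and 5 Cited2 CKO mice on a C57BL/6J background, aged 8 to 12 weeks. Both genotypes carry floxed Cited2 alleles (Cited2 fl/fl). Cited2 CTL mice, labelled wildtype, have no Cre, whereas Cited2 CKO mice also carry Vav-iCre, which is active throughout the hematopoietic system, so deletion is not restricted to HSCs, and the control group does not carry the Cre transgene. Cited2 encodes a transcriptional co-regulator. The sources used here give 5 animals per genotype but do not say whether a library held the cells of 1 animal, so p-values measure the spread between libraries.

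ERKs are activated by phosphorylation downstream of growth factor and cytokine receptors, RAS, RAF and MEK. They in turn phosphorylate RSKs, which act on transcription factors, translation and survival proteins, and MSKs, which act mainly in the nucleus on CREB and histone H3. S6 kinases are activated by mTORC1 and PDK1, phosphorylate ribosomal protein S6 and other translation factors, and share several substrates with RSKs. In blood-forming cells these kinases lie downstream of cytokine receptors such as KIT. They are regulated mainly by phosphorylation, which RNA levels do not show.

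The RSKs are paralogs with similar protein sequences, so the question arises whether a sequencing read could fall on more than 1 of them. Proteins translated from the GENCODE transcripts of Rps6ka3 and Rps6ka1 were 80.2% identical over aligned residues, those of Rps6ka3 and Rps6ka2 81.0%, and those of Rps6ka3 and Rps6ka6 76.1%. Identity was 64.8% for the MSK pair and 71.0% for the S6K pair. The longest stretch shared by the coding sequences of any pair among the 9 members had 38 bases, and lay in Rps6ka3 and Rps6ka1. The 45 bases around it are shown for the 4 RSKs because this is where their reads would be hardest to tell apart. They encode part of the first of the 2 kinase domains that an RSK holds, around the lysine of its ATP site, and capitals mark bases equal to those of Rps6ka3.
Rps6ka3: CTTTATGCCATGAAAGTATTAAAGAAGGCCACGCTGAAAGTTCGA
Rps6ka1: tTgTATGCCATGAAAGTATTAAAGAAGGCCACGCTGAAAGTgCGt
Rps6ka2: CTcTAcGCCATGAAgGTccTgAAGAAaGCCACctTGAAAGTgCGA
Rps6ka6: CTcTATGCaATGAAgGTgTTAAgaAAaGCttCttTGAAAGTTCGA
In GRCm38 the stretch of Rps6ka3 lies in exons 4 and 5 (chrX:159317963-159326845, + strand, with the intron between them), and that of Rps6ka1 in exons 2 and 3 of the transcript used (chr4:133869575-133871589, - strand). That of Rps6ka2 lies in exons 3 and 4 (chr17:7236088-7246706, + strand) and that of Rps6ka6 in exons 6 and 7 (chrX:111434393-111435226, - strand). Of the 45 bases, 41 were the same in Rps6ka1 as in Rps6ka3, 35 in Rps6ka2 and 34 in Rps6ka6. The encoded residues differed from Rps6ka3 at 0 positions in Rps6ka1 and Rps6ka2 and at 2 in Rps6ka6. The reads had 85 bases, and over 36 pairs of members no 85-base sequence occurred in transcripts of both.

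Deposited counts summed to between 3058690 and 4548795 per library, and all 9 members were among the 14165 genes kept by the filter on low counts. Values below are CPM, that is counts scaled to a common TMM-normalized library total. Cited2 was expressed at 101 to 222 CPM in the Cited2 CTL libraries and at 3.80 to 8.30 CPM in 4 Cited2 CKO libraries, but at 120 CPM in the library labelled CKO 3. This library was kept in its labelled group, and the members' differences are also given without it. Xist was at 1250 to 1316 CPM in CTL 2, CTL 4, CKO 2 and CKO 3, and below 20 CPM in the other 6 libraries, and CKO 2 also held 133 CPM of the Y-linked gene Eif2s3y. Of the HSC markers, 10 of 10 were tested and none was called, with a summed level of 2350 to 2670 CPM in Cited2 CTL and 2130 to 2390 CPM in Cited2 CKO libraries. The T cell markers Cd3e, Cd3d, Cd4 and Cd8a were below 10 CPM in every library and the granulocyte marker Ly6g was at 0. Myeloid RNA was present all the same, since 7 of the 8 listed myeloid markers passed the filter. Their list summed to 418 to 736 CPM in Cited2 CTL and 412 to 595 CPM in Cited2 CKO libraries. Cd48, whose protein was gated against, was called higher in Cited2 CKO (38.5 to 60.8 CPM, against 14.4 to 27.4 CPM in Cited2 CTL). Flt3, the other gene listed as a progenitor marker, went the other way and was not called. It had 84.9 to 104 CPM in Cited2 CKO against 99.5 to 146 CPM in Cited2 CTL. The summed level of Cd48 and Flt3 overlapped between the genotypes (130 to 164 CPM in Cited2 CKO, 117 to 173 CPM in Cited2 CTL). The part of the Cd48 difference in the results below was not tested. In bulk HSCs a change in the mix of cells and a change of RNA per cell cannot be told apart.

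The levels of the kinases in HSCs were compared per length, as CPM per kilobase of the deposited gene length. In Cited2 CTL HSCs, Rps6ka1 was the most abundant member (61.6 ± 4.42 CPM per kilobase, SD, n = 5), and 86.3% of tested genes had a lower level per length. Rps6ka3 (31.7 ± 5.01), Rps6kb2 (29.5 ± 2.01), Rps6ka5 (23.1 ± 1.79) and Rps6kb1 (20.9 ± 1.76) followed. Rps6ka3 overlapped with Rps6kb2 and Rps6ka5 with Rps6kb1, while the lowest Rps6kb2 library (27.5) lay above the highest Rps6ka5 library (25.2). Mapk3 (14.9 ± 3.59), Rps6ka4 (9.49 ± 4.06) and Rps6ka6 (7.53 ± 2.06) came next. The ranges of Mapk3 and Rps6ka4 overlapped, as did those of Rps6ka4 and Rps6ka6, and Mapk3 also overlapped with Rps6kb1 although Rps6kb1 was higher in 5 of 5 libraries. Rps6ka2 (0.537 ± 0.252) lay below the range of every other member, and only 2.3% of tested genes had a lower level.

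**Figure D1:**
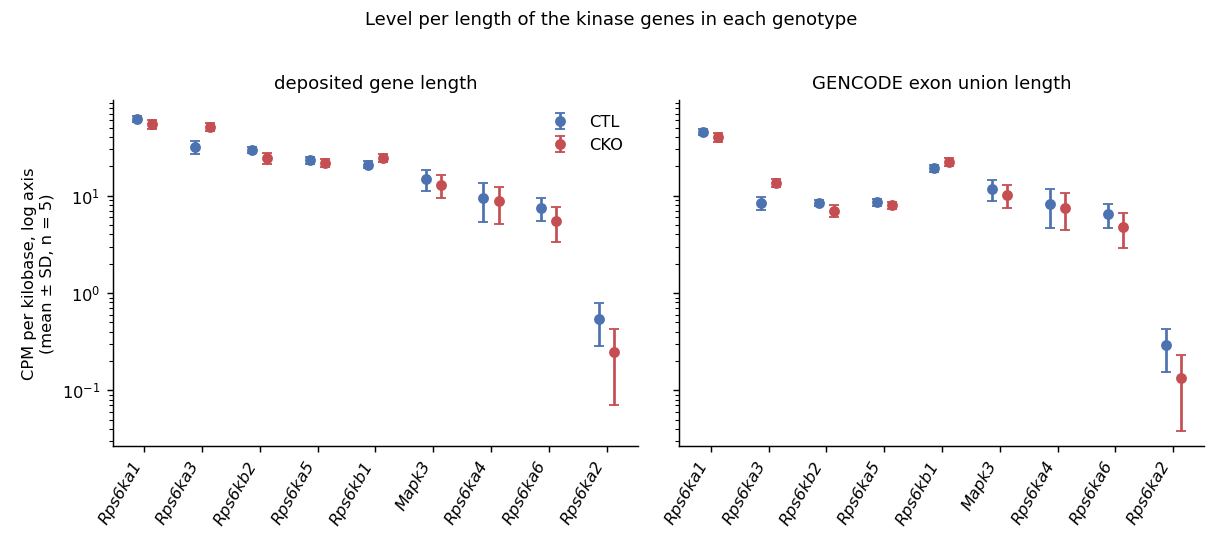
Mean CPM per kilobase (log axis) of the 9 members in Cited2 CTL (blue) and Cited2 CKO (red) HSCs, with SD over 5 libraries, for the deposited gene length (left) and the length of all annotated exons (right). In Cited2 CTL HSCs the change of length moved Rps6ka3 from place 2 to 6 and Rps6kb1 from 5 to 2.

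This order depended on the length that was used. The deposited length of Rps6ka3, 2223 bases, equals its coding sequence alone, whereas its annotated exons cover 8322 bases. That of Rps6kb2 is 1491 bases against 5167, and that of Rps6kb1 7889 against 8658. With the length of all annotated exons, the Rps6ka3 level in Cited2 CTL was 8.47 ± 1.34 CPM per kilobase and its place among the 9 members moved from 2 to 6. Rps6kb1 (19.1 ± 1.61) moved from 5 to 2 and stood above Rps6kb2 (8.52 ± 0.580). Rps6ka1 remained highest and Rps6ka2 lowest with either length.

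Of the 4 RSK genes, Rps6ka3 was higher in every Cited2 CKO library than in any Cited2 CTL library. RSK2, its product, is an ERK-activated kinase of CREB and other targets, and the gene lies on chromosome X (GRCm38 chrX:159210307-159368244, + strand). Cited2 CTL libraries 1 to 5 had 51.8, 71.7, 72.3, 81.7 and 74.8 CPM. Cited2 CKO libraries 1 to 5 had 113, 114, 129, 104 and 104 CPM, from 354 to 545 counts. The ratio of the means was 1.60, with a log2 fold change of 0.67 (SE 0.12). It was the only member called (adjusted p under 0.05 and fold change above 20% in the quasi-likelihood F test of edgeR, adjusted by Benjamini-Hochberg over all tested genes), against 0.226% of all tested genes. Nor did the CPM of any other member separate the genotypes without overlap, which 3.33% of tested genes did. Since the gene was chosen with this contrast in view, neither count supports a conclusion about it.

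The difference in Rps6ka3 kept its direction in all 20 alternative fits, with log2 fold changes from 0.52 to 0.73, but its call was lost in 12 of them. It was 0.62 (SE 0.12) without CKO 3, and 0.60 (SE 0.14) without CKO 2 and CKO 3 together, and neither fit called it. The call was kept when either CTL 1 or CKO 4 was left out, and lost when any 1 of the other 8 libraries was. With an offset for GC content and length, the log2 fold change was 0.52 and the gene was not called. The offset used the deposited length, which for Rps6ka3 equals the coding sequence alone. Within the libraries low in Xist, 3 per genotype, the Cited2 CTL mean was 66.3 CPM and the Cited2 CKO mean 107 CPM, and the highest Cited2 CTL library (74.8) lay below the lowest Cited2 CKO library (104). Of the libraries high in Xist and low in Eif2s3y, CTL 2 and CTL 4 averaged 76.7 CPM and CKO 3, the only Cited2 CKO library of this kind, had 129 CPM. CKO 3 is also the library with Cited2 at 120 CPM, within the Cited2 CTL range, and its Rps6ka3 level was the highest of all libraries.

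Rps6ka1 (chr4:133847290-133887797, - strand) encodes RSK1. It had 176 to 212 CPM in Cited2 CTL (median 190) and 150 to 197 CPM in Cited2 CKO libraries (median 162). The ranges overlapped, with CKO 2 and CKO 4 inside the Cited2 CTL range, and the log2 fold change was -0.19 (SE 0.08), or -0.15 without CKO 3. This sign turned with the offset for GC content and length, where the value was 0.03. Rps6ka6 (chrX:111388192-111537959, - strand), the gene of RSK4, had 26.3 to 47.3 CPM in Cited2 CTL (median 27.4) and 15.2 to 38.5 CPM in Cited2 CKO (median 20.3), a log2 fold change of -0.45 (SE 0.26), or -0.36 without CKO 3. Here CKO 3, CKO 4 and CKO 5 lay below all Cited2 CTL libraries while CKO 1 and CKO 2 lay within their range. Rps6ka2 (chr17:7170115-7303315, + strand), the gene of RSK3, had 3 to 19 counts in Cited2 CTL and 0 to 11 in Cited2 CKO libraries, and its log2 fold change of -1.09 had an SE of 0.76 (-0.99 without CKO 3). The library CKO 5 had 0 counts of it, which allows a level of up to 0.688 CPM at this depth (3 counts, counting error only).

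**Figure D2:**
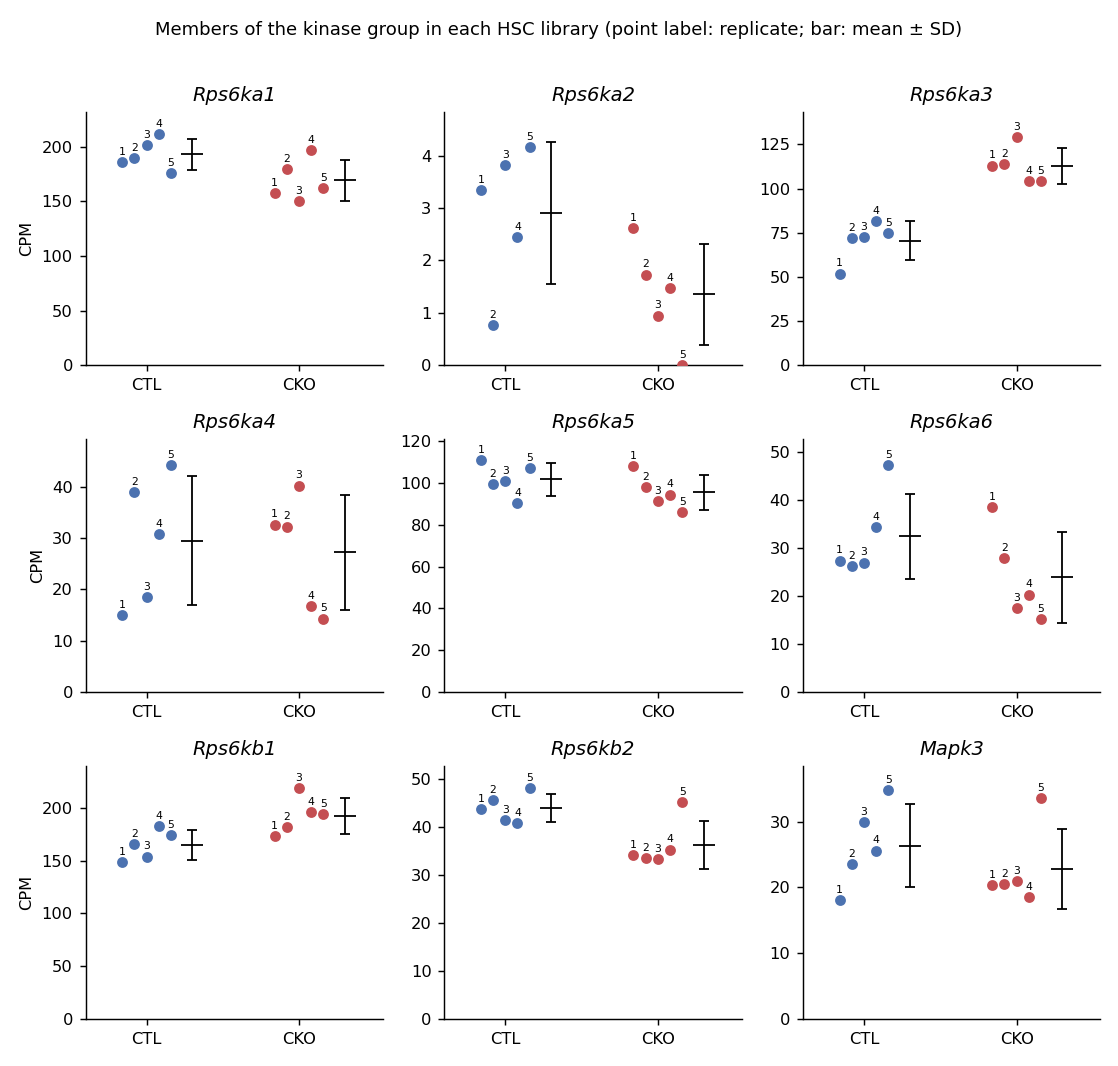
CPM of each of the 9 members (y axes from 0, 1 panel per gene) in the 5 Cited2 CTL (blue) and 5 Cited2 CKO (red) libraries, with the replicate number above each point and the mean ± SD beside it. Only the Rps6ka3 panel shows genotypes that do not overlap, with 51.8 to 81.7 CPM against 104 to 129 CPM.

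These differences shifted the composition of the RSK group, expressed as the share of each gene in the summed level per kilobase. Rps6ka3 made up 26.0%, 32.6%, 31.3%, 32.6% and 33.2% of the sum in Cited2 CTL libraries 1 to 5. In Cited2 CKO libraries 1 to 5 it made up 45.9%, 44.4%, 52.7%, 40.9% and 45.9%. The Rps6ka1 share was 60.9% ± 3.92 in Cited2 CTL against 48.8% ± 4.44 in Cited2 CKO (SD, n = 5 each), also without overlap. Rps6ka6 held 7.43% ± 1.94 and 4.99% ± 1.92, with overlap, and Rps6ka2 less than 1% in every library. The summed RSK level was 101 ± 8.32 CPM per kilobase in Cited2 CTL against 111 ± 5.29 in Cited2 CKO, and these ranges overlapped. With the length of all annotated exons the Rps6ka3 share was smaller in both genotypes (means of 13.9% and 23.4%). Because shares of 1 sum are bound to each other, the lower Rps6ka1 share is not separate from the higher Rps6ka3 share.

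**Figure D3:**
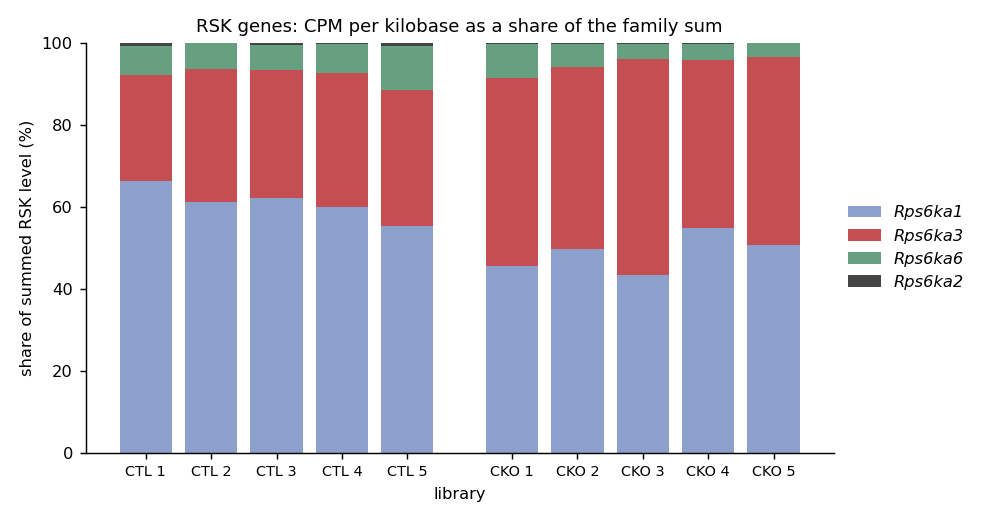
Share of each RSK gene in the summed CPM per kilobase of the family (y axis, percent) in each of the 10 libraries. Rps6ka3 (red) took 26.0% to 33.2% in the Cited2 CTL libraries and 40.9% to 52.7% in the Cited2 CKO libraries.

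The ranges of both MSK genes overlapped between the genotypes. Rps6ka5 (chr12:100548439-100726983, - strand), which encodes MSK1, was among the most even members, with 90.4 to 111 CPM in Cited2 CTL (median 101) and 86.0 to 108 CPM in Cited2 CKO (median 94.4). Its coefficient of variation was 7.76% and 8.72%, and its log2 fold change -0.09 (SE 0.09), or -0.07 without CKO 3. Rps6ka4 (chr19:6829085-6840636, - strand), which encodes MSK2, was uneven within both genotypes. In Cited2 CTL it had 15.0, 38.9, 18.5, 30.7 and 44.2 CPM, and in Cited2 CKO 32.6, 32.2, 40.2, 16.8 and 14.3 CPM. Both genotypes thus had libraries below 20 CPM and above 40 CPM, and the log2 fold change was -0.12 (SE 0.33). It was -0.31 without CKO 3, -0.48 without CKO 2 and CKO 3, 0.07 without CTL 5 and 0.03 without CKO 5, so its sign rested on single libraries. An exon of Rps6ka4 holds the microRNA gene Mir5046 on the same strand (59 bases).

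Of the S6 kinase genes, Rps6kb1 was somewhat higher and Rps6kb2 somewhat lower in Cited2 CKO libraries, each with overlap and neither called. Rps6kb1 (chr11:86498871-86544805, - strand) encodes S6K1, an mTORC1-dependent kinase of ribosomal protein S6. It had 149, 166, 154, 183 and 174 CPM in Cited2 CTL against 173, 182, 219, 196 and 194 CPM in Cited2 CKO, where 3 libraries lay above every Cited2 CTL library. The log2 fold change was 0.22 (SE 0.08), 0.17 without CKO 3 and 0.03 with the offset for GC content and length. Rps6kb2 (chr19:4153991-4163354, - strand), which encodes S6K2, had 43.8, 45.7, 41.5, 40.9 and 48.1 CPM in Cited2 CTL and 34.2, 33.6, 33.3, 35.3 and 45.2 CPM in Cited2 CKO. All Cited2 CKO libraries but CKO 5 lay below the Cited2 CTL range, and the log2 fold change was -0.28 (SE 0.13), -0.25 without CKO 3 and -0.13 with the offset. Exons of Rps6kb2 share 1224 bases with Ptprcap and 45 with Coro1b on the opposite strand, and those of Rps6kb1 share 155 bases with Rnft1, also on the opposite strand. The use of strand in counting is not given in the sources used here, so reads of these partners cannot be told apart. Within the pair, the Rps6kb1 share of the summed level per kilobase was 41.5% ± 2.51 in Cited2 CTL against 50.2% ± 3.85 in Cited2 CKO, with overlap between CTL 4 (45.7%) and CKO 5 (44.8%). With the length of all annotated exons the mean shares were 69.1% and 76.0%, so which gene held the larger part depended on the length.

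Mapk3 (chr7:126759601-126765819, + strand), the gene of ERK1, had 18.1, 23.5, 30.0, 25.6 and 34.8 CPM in Cited2 CTL. In Cited2 CKO it had 20.4, 20.5, 21.0, 18.5 and 33.6 CPM, so that 4 libraries lay close together at the lower end of the Cited2 CTL range and CKO 5 near its top. The log2 fold change was -0.21 (SE 0.22), -0.18 without CKO 3 and -0.01 with the offset. Rps6kc1, a distant relative of the S6 kinases, which encodes an endosomal protein with a kinase-like domain, had a log2 fold change of -0.27 (SE 0.33). Rps6kl1 was at 1 to 14 counts per library and was not tested.

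Across the 9 members, 2 had a positive and 7 a negative log2 fold change, with a median of -0.19, against 7231 positive and 6934 negative values and a median of 0.01 over all tested genes. The GC content of the transcripts is set beside these values. The 5 members above 50% GC, which are Rps6ka2 (54.3%), Rps6kb2 (55.6%), Rps6ka1 (57.3%), Mapk3 (57.6%) and Rps6ka4 (60.3%), all had negative values. Rps6kb1 (39.2%) and Rps6ka3 (40.5%) had the 2 positive values, but Rps6ka6 (39.7%) and Rps6ka5 (42.7%) were negative. Over all tested genes with a known GC content, the median log2 fold change was 0.12 for the 3061 genes from 40% to 45% GC and -0.18 for the 2230 genes from 55% to 60%. With the offset that removes this trend, Rps6ka1 and Rps6ka4 changed sign, Mapk3 and Rps6kb1 came within 0.04 of 0, and Rps6ka6 (-0.65) and Rps6ka5 (-0.23) moved further down.

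**Figure D4:**
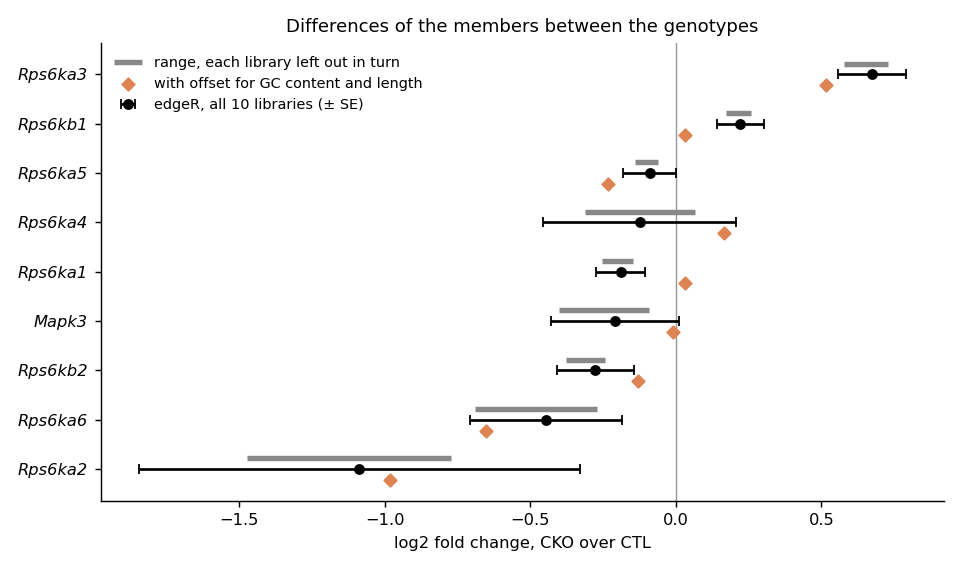
Log2 fold change of each member, Cited2 CKO over Cited2 CTL (x axis), from all 10 libraries with its SE (black), the range when each library was left out in turn (grey bar) and the value with an offset for GC content and length (orange). Rps6ka3 stayed between 0.52 and 0.73 in all of these, whereas the values of Rps6ka4 lay on both sides of 0.

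Variation between libraries was compared among the members over the 10 libraries, as a description without a test, since all pairs share the same libraries, depths and genotypes. The median Pearson correlation of log2 CPM over the 36 pairs was 0.03. Rps6ka3 and Rps6kb1 had the highest (0.84, Spearman's rho 0.75), and Rps6ka3 and Rps6kb2 the lowest (-0.74, rho -0.76). By rho the lowest pair was Rps6ka5 and Rps6kb1 (-0.81, r = -0.73). The pairs among Rps6ka2, Rps6ka5 and Rps6ka6 had r from 0.69 to 0.79, where Rps6ka2 had few counts. Mapk3 and Rps6kb2 reached an r of 0.65 and shared a high value in CKO 5. Among 11248 other genes averaging 3 or more on the log2 CPM scale, the profile closest to Rps6ka3 was that of Casp1, which encodes an inflammatory caspase (r = 0.98, rho 0.96, n = 10 libraries). Casp1 was itself called higher, with a log2 fold change of 0.47. The profile closest to Rps6kb1 was that of Larp7 (r = 0.96), a 7SK RNA-binding protein, and the closest to Mapk3 that of Agap2 (r = 0.96). For the other members these were Zbtb20 for Rps6ka1 (0.94), Fn3krp for Rps6ka4 (0.95), Atp6v1e1 for Rps6ka5 (0.91), Zfpm1 for Rps6ka6 (0.95) and Fcgrt for Rps6kb2 (0.95). Rps6ka2, with its few counts, was closest to Med23 (0.93). Values of this size are the highest of many genes over 10 points.

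To place the kinases in their pathways, 107 genes in 7 lists were examined, from the receptors to the substrates, and 101 of them passed the filter. Of these, 1 was called higher and 0 lower by edgeR, against 0.226% of all tested genes, while 6 were higher and 17 lower at an unadjusted p under 0.05, which 5.8% and 7.08% of all tested genes were. DESeq2 called 1 higher and 3 lower, against 0.974% and 1.12% of all tested genes. The lists were written with earlier results of these data known, so these counts are a description and test nothing. The gene called higher was Ccnd1, which encodes cyclin D1, a G1 cyclin induced by ERK. It had 75.9, 70.7, 58.8, 80.9 and 61.0 CPM in Cited2 CTL and 94.8, 100, 104, 140 and 122 CPM in Cited2 CKO, without overlap, a log2 fold change of 0.69 (SE 0.13, adjusted p = 0.0456, edgeR). This call was lost when any single library was left out, with log2 fold changes from 0.60 to 0.75 (0.72 without CKO 3). It was also lost with the offset for GC content and length, where the log2 fold change was 0.74 (adjusted p = 0.173, edgeR), while DESeq2 gave an adjusted p of 0.000268. The other pathway genes named below kept their direction without CKO 3, and none was called by edgeR with all 10 libraries.

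Upstream of the kinases, the 16 genes from receptors to RAS had a median log2 fold change of 0.03, with 9 positive and 7 negative values and none called. Flt3, a receptor of early progenitors, had -0.36 (adjusted p = 0.194), whereas Sos1, which loads RAS with GTP, had 0.29 (adjusted p = 0.469, both edgeR), or 0.05 with the offset. The 12 genes of the RAF, MEK and MAPK core had a median of -0.07 and none was called. Map2k1, which encodes the ERK-activating kinase MEK1, had 129 to 150 CPM in Cited2 CTL against 112 to 128 CPM in Cited2 CKO, without overlap (log2 fold change -0.21, adjusted p = 0.257, edgeR). Its paralog Map2k2 had -0.23 (adjusted p = 0.319, edgeR) and Braf, a RAF kinase, 0.11 (adjusted p = 0.667, edgeR), and with the offset these 2 signs turned (0.03 and -0.11). Among 14 tested genes that restrain RAS or ERK the median was 0.13, with 8 positive and 6 negative values and none called. Nf1 and Rasa1, which inactivate RAS, had 0.52 and 0.24 (0.29 and 0.10 with the offset), and the phosphatase genes Dusp2 and Dusp5 -0.24 (-0.02 with the offset) and -0.45 (adjusted p from 0.291 to 0.534, edgeR).

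**Figure D5:**
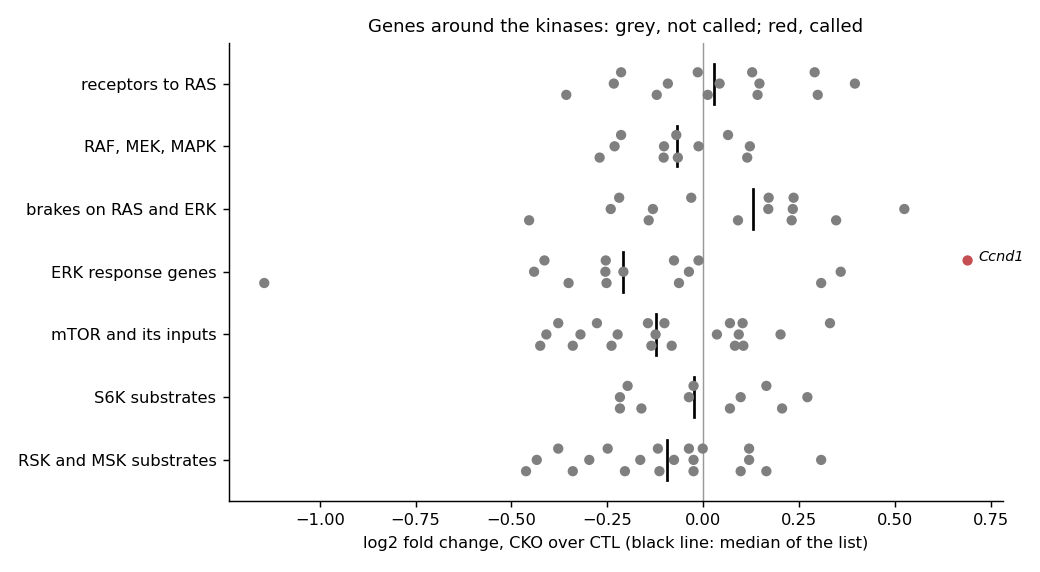
Log2 fold change, Cited2 CKO over Cited2 CTL (x axis), of tested genes in the 7 lists around the kinases, with the median over all tested genes of a list as a black line. Ccnd1 (red, 0.69) was the only gene called, and the medians lay between -0.21 and 0.13.

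In the ERK response list, Ccnd1 was called and 12 of the 15 tested genes had negative values, with a median of -0.21. The list also holds transcription factors through which ERK acts, so it is not a readout of ERK activity alone. No list median was computed with the offset for GC content and length. Egr1, an immediate early transcription factor, had 536 to 713 CPM in Cited2 CTL against 406 to 562 CPM in Cited2 CKO (log2 fold change -0.44, SE 0.10, adjusted p = 0.0781, edgeR), and the ranges met only through CKO 4. Etv5, an ETS factor, had -0.41 (adjusted p = 0.285) and Mcl1, a survival protein of the BCL2 family, 0.36 (adjusted p = 0.321, both edgeR). The 21 genes of mTOR and its inputs had a median of -0.12, and none was called. Akt2, which encodes a kinase between PI3K and mTORC1, had 110, 124, 114, 110 and 119 CPM in Cited2 CTL and 82.7, 84.4, 87.5, 101 and 74.0 CPM in Cited2 CKO, without overlap (log2 fold change -0.42, SE 0.09, adjusted p = 0.0783, edgeR). Mtor itself also did not overlap, with 58.9 to 70.7 CPM in Cited2 CTL and 45.0 to 57.3 CPM in Cited2 CKO (log2 fold change -0.32, adjusted p = 0.255, edgeR). Rraga and Rragb, which encode RAG GTPases that bring mTORC1 to the lysosome, had 0.20 and 0.33 (adjusted p = 0.336 and 0.524, edgeR), the second of them 0.21 with the offset. Egr1 and Akt2 were among the 3 genes that DESeq2 called lower (adjusted p = 0.000856 and 0.0048), and with the offset for GC content and length their log2 fold changes were -0.22 and -0.25 in edgeR.

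Downstream, the 11 S6K substrates had a median log2 fold change of -0.03 and the 20 RSK and MSK substrates one of -0.10, and none in either list was called. Of S6K substrates, Pdcd4, an inhibitor of translation initiation, had 0.27 (adjusted p = 0.289) and Gsk3b, a kinase that RSKs also inhibit, 0.17 (adjusted p = 0.425), while Poldip3, which recruits S6K1 to spliced mRNA, had -0.22 (adjusted p = 0.370) and Eef2k, the kinase of elongation factor 2, -0.20 (adjusted p = 0.378, all edgeR). With the offset Pdcd4 was at 0.16, Gsk3b at 0.03 and Poldip3 at -0.09. Of RSK and MSK substrates, Rela, a subunit of NF-kappaB, had 139 to 154 CPM in Cited2 CTL against 112 to 137 CPM in Cited2 CKO, without overlap (log2 fold change -0.20, adjusted p = 0.290, edgeR), and this sign turned with the offset (0.06). Tsc2, which restrains mTORC1 and is inhibited by RSKs, had -0.34 (adjusted p = 0.309) and Atf1, a CREB relative, 0.12 (adjusted p = 0.591, both edgeR), or 0.04 with the offset. A p that misses the threshold does not show that these genes were equal between the genotypes.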

How the data were processed

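RNA-seq counts from sorted HSCs of 5 Cited2 CTL and 5 Cited2 CKO mice were analysed, and libraries were grouped by genotype from their labels. Single-ended reads of 85 bases were aligned by the authors to GRCm38 (mm10) with HISAT2 and assigned to genes with Rsubread, and the authors deposited raw counts per gene symbol next to each gene's length. The annotation, the use of strand and the handling of reads matching more than 1 gene are not given in the sources used here. Library totals were 3058690 to 4548795 counts, and 26146 genes were listed. These totals lie far below the average number of sequenced reads per sample that the study gives, so they are not the sequencing depth. The reason for this gap was not tested.

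Counts were tested in R 4.3.3 with edgeR 4.0.16 (filterByExpr, TMM, robust quasi-likelihood F test, Benjamini-Hochberg adjustment over 14165 genes). A gene was called at an adjusted p under 0.05 and a fold change above 20%. The common biological coefficient of variation was 25.3%, and log2 CPM used a prior count of 2. SEs are those of the log2 fold change, derived from the F statistic. Positions, exons, coding sequences and GC content (longest transcript, known for 98.1% of tested genes) came from the GENCODE annotation and transcripts of GRCm38. Proteins were translated and aligned with Biopython 1.88. Non-overlap means that every CPM of 1 genotype lay above every CPM of the other.

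The members and the gene lists were chosen with earlier results of these data known. The genes named are all members and their relatives Rps6kc1 and Rps6kl1, Cited2, and of each list every called gene and the 2 genes with the smallest p in each direction. For each member, the gene with the highest correlation over the 10 libraries is also named, and of the pairs of members the one with the highest and the one with the lowest correlation. Cd48, Xist, Eif2s3y, the marker genes, the overlapping genes, and the other pairs of members were named outside this rule. Some genes that the rule names are not reported here, but they count in the lists. Marker lists of megakaryocytes (385 to 534 CPM summed), erythroid (34.9 to 61.9), myeloid (412 to 736), B (50.6 to 89.7), T (2.94 to 11.8) and stromal cells (22.0 to 41.1) overlapped between the genotypes and held no called gene.

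The alternatives were DESeq2 1.42.0 (Wald test), limma-voom (limma 3.58.1), DESeq2 size factors in edgeR, no filter, at least 10 counts in every sample, the replicate number as a block, a loess offset for GC content and length (span 50%) with and without that block, an adjusted p of 0.01, each library left out, and TPM for levels. Log2 CPM of Xist as a covariate, CKO 2 and CKO 3 left out together, and the length of all annotated exons were added after the data were seen.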

Additional observations from a re-analysis of the deposited data

Results flagged for a closer look

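Of 72 groups of 5 libraries examined for a library that stands apart (Dixon's test at the 95% level, which marks about 1 in 20 groups by chance), 4 were marked, and 2 of them concern members. Both are the library CKO 5, where Rps6kb2 was at 45.2 CPM against 33.3 to 35.3 CPM in the other Cited2 CKO libraries, and Mapk3 at 33.6 CPM against 18.5 to 21.0 CPM. Without this library the log2 fold changes of Rps6kb2 and Mapk3 were -0.38 and -0.40. Sos1 was at 91.9 CPM in CTL 5 against 55.6 to 61.2 CPM in the other Cited2 CTL libraries. Cited2 itself was at 120 CPM in the library labelled CKO 3 against 3.80 to 8.30 CPM in the other Cited2 CKO libraries. The cause of these values was not tested.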

How the results depend on the processing

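Over all genes, 17 were called higher and 15 lower, but DESeq2 called 138 and 158, the offset for GC content and length 5 and 3, the offset with the replicate block 10 and 3, and an adjusted p of 0.01 left 5 and 3. The replicate block called 15 higher and 9 lower, and without CKO 2 and CKO 3 the counts were 19 and 9. Leaving out 1 library gave 5 to 27 higher and 3 to 18 lower calls, with 5 and 3 without CKO 2 and 27 and 15 without CKO 3. Of the pathway genes, 1 was called higher, and 0 with limma-voom, the replicate block, either offset, the Xist covariate, CKO 2 and CKO 3 left out, or any single library left out (0 to 0). Lower calls among them were 0, but 3 with DESeq2, 1 without the filter on low counts, and 0 to 2 with 1 library left out (2 without CKO 4).

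Rps6ka1 turned to 0.031 with the offset and 0.030 with the offset and the replicate block. Rps6ka4 turned to 0.17 with the offset, 0.15 with the offset and the replicate block, 0.065 without CTL 5 and 0.027 without CKO 5 (leave-one-out range -0.31 to 0.065). The log2 fold change of Rps6ka3 with the replicate block was 0.68, and it was not called. Replicate numbers are shared by the labels of both genotypes, but same-numbered libraries deviated from their group means with correlations of 0.01, -0.10, 0.21, 0.00 and 0.19, and not every library correlated best with its own number, so the numbers are not shown to pair the samples. Members other than Rps6ka1, Rps6ka3 and Rps6ka4 kept their direction and were called in none of the alternatives run. The causes of these changes were not tested. TPM rescales the same level per length by 1 factor per library. The shares of the members are therefore the same with TPM by construction, and this alternative could not test them. The length of all annotated exons lowered the share of Rps6ka3 in the members' sum in Cited2 CTL from 15.8% to 7.23%. Depth limits Rps6ka2, with at most 19 counts in a library.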
